A study of Mus musculus with 2 samples.

Results

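The MHC class I antigen presentation genes described here are 10 genes chosen by name: B2m, H2-K1, H2-D1, H2-T23, Tap1, Tap2, Tapbp, Nlrc5, Psmb8 and Psmb9. All 10 were found among the 42392 gene IDs of the deposited table, each on 1 ID that carried no other symbol. The values are from 1 RNA-seq library of hair follicle stem cells, which live in the bulge of the follicle and renew the hair, sorted from the skin of female mice in anagen II-III, the early growth phase. The mice carried K15-CrePGR, a Cre fused to the progesterone receptor and driven by a keratin 15 promoter, were Shh+/-, and had received RU486, the ligand of that Cre, over 8 days; the title calls the sample a control. The other sample, with the same sex, genotype and RU486 treatment but in telogen, the resting phase, was not analysed here, because no column name of the table fits it alone. The labels give neither the age nor the strain of the mice, nor the number of animals behind the library. Without a replicate, values carry no error, no test was possible, and the order of the genes below is that of 1 library.

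Class I molecules show peptides from inside the cell to CD8 T cells. A heavy chain pairs with the light chain beta-2 microglobulin in the endoplasmic reticulum and is loaded there with peptides that the proteasome cut and the TAP transporter brought in. Interferons raise most of these genes, and NLRC5 is the activator that works at class I promoters. The lower part of the growing hair follicle is known for low class I levels, as one element of its immune privilege, and quiescent hair follicle stem cells of the mouse have been described as low in the presentation machinery and in Nlrc5. Nothing below tests that description, since a single stage was measured.

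The unit is TPM, a share of all transcripts corrected for transcript length, so that levels of different genes can be set side by side. All 10 genes reached 1 TPM, the level taken here as detected, whereas 56.2% of all 20732 protein-coding genes did. At 5 TPM or more there were 8 of the 10, against 42.6% of protein-coding genes. The median of the 10 was 17.2 TPM, against 12.5 TPM over the 11655 protein-coding genes at 1 TPM or more. Of the 10, 6 were above that 12.5 TPM, while 28.1% of all protein-coding genes were at or above it. Genes at 1 TPM or more are split evenly by it, since it is their median. Fewer cells of a type and less RNA per cell cannot be told apart in such a bulk value. The genes were thus detected throughout, but their levels spread over 114-fold from Nlrc5 to B2m. B2m, H2-D1 and H2-K1 held 79.4% of the summed TPM of the 10.

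**Figure D1:**
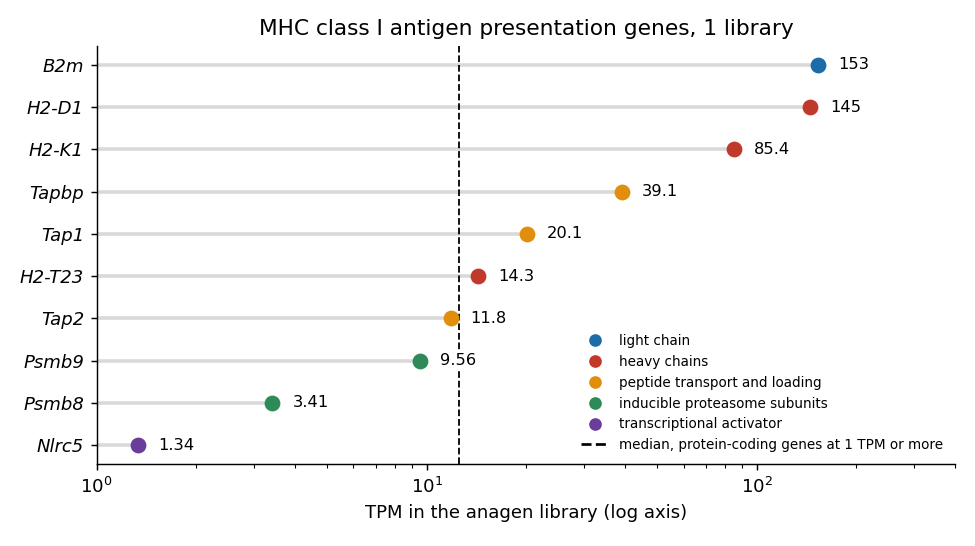
TPM of each of the 10 genes in the anagen library on a log axis, coloured by role, with a dashed line at 12.5 TPM, the median of protein-coding genes at 1 TPM or more. The light chain and both classical heavy chains sit between 85.4 and 153 TPM, and Tap2, both proteasome subunits and Nlrc5 lie left of the line.

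The promoters of the heavy and light chain genes are shown here because H2-K1 and H2-D1 share an arrangement of motifs that the choice by name did not use, and the others hold parts of it. RefSeq promoter windows (assembly GRCm38.p6, of which mm10 is another name), running from 250 bases before to 50 bases after a listed start site, matched 8 of the 10 genes; Tap2 and Nlrc5 had none. Capitals mark letters that matched a searched motif on either strand: GGGATTCCCC, the kappa B site of the class I enhancer; GAAA, any 2 bases and GAAA again, the core of an interferon response element; GAA, any 2 bases and GAAA, a shorter form of it; TGACG, the core of a cyclic AMP response element; and CCAAT, the box bound by NF-Y. The H2-K1 stretch is chr17:34000348-34000469 on the minus strand, H2-D1 chr17:35262912-35263033 on the plus strand, B2m chr2:122147537-122147646 on the plus strand and H2-T23 chr17:36032742-36032851 on the minus strand, all upstream of the start that the promoter table lists. For H2-K1 that start, 34000347, lies inside the gene as RefSeq bounds it, which reaches to 34000619, so the H2-K1 stretch is within those bounds.
H2-K1: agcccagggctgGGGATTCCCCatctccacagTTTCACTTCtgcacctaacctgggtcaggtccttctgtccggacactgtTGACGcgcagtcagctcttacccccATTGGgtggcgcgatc
H2-D1: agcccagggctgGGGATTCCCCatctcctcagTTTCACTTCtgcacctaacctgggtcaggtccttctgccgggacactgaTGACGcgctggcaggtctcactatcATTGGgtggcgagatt
B2m: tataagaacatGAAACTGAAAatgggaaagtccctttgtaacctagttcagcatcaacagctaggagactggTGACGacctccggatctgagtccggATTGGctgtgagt
H2-T23: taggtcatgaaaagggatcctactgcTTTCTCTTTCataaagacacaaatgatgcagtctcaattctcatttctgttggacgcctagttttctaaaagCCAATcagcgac

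The stretches of H2-K1 and H2-D1, both starting 12 bases before the kappa B letters, had the same base at 109 of 122 positions without a gap, and their 4 marked motifs stood in the same order. B2m carried an interferon response core, a TGACG and a CCAAT box in that order, with no kappa B letters as searched. H2-T23 had the interferon response core and the CCAAT box but no TGACG in its window. Of the 8 promoters, 7 held CCAAT, against 37.4% of all 32851 promoter windows. TGACG stood in 5 of the 8, against 20.8% of all windows. These motifs too were chosen after the promoters had been read, so the counts are descriptions and no test of enrichment. The 8 are not separate cases either, as H2-K1 resembles H2-D1 and the Tap1 and Psmb9 windows overlap. For each of the 8 the most upstream listed start was used, while all windows include every listed start of a gene. The kappa B letters, which were picked after the H2-K1 promoter had been read, stood in H2-K1 and H2-D1 and in 28 windows in all, or 0.0852%. The interferon response core stood in B2m and H2-T23 and in 3.44% of all windows, the shorter form in H2-K1 and H2-D1 and in 7.52%. Neither form overlapped another marked motif in these stretches. The gamma activated site TTCNNNGAA was matched in Psmb8 alone among the 8, against 8.30% of all windows, and the TATA box TATAAA in B2m, H2-D1, H2-K1 and Psmb8, against 13.6%. A match is a run of letters and was not tested for binding. Counted from the listed start, the first of the TATA letters stood at position 36 in H2-K1 and at position -26 in H2-D1, so the listed starts of the pair are not at matching places. In B2m the TATA letters were matched on the opposite strand at position -152, and in Psmb8 they stood at position -237.

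**Figure D2:**
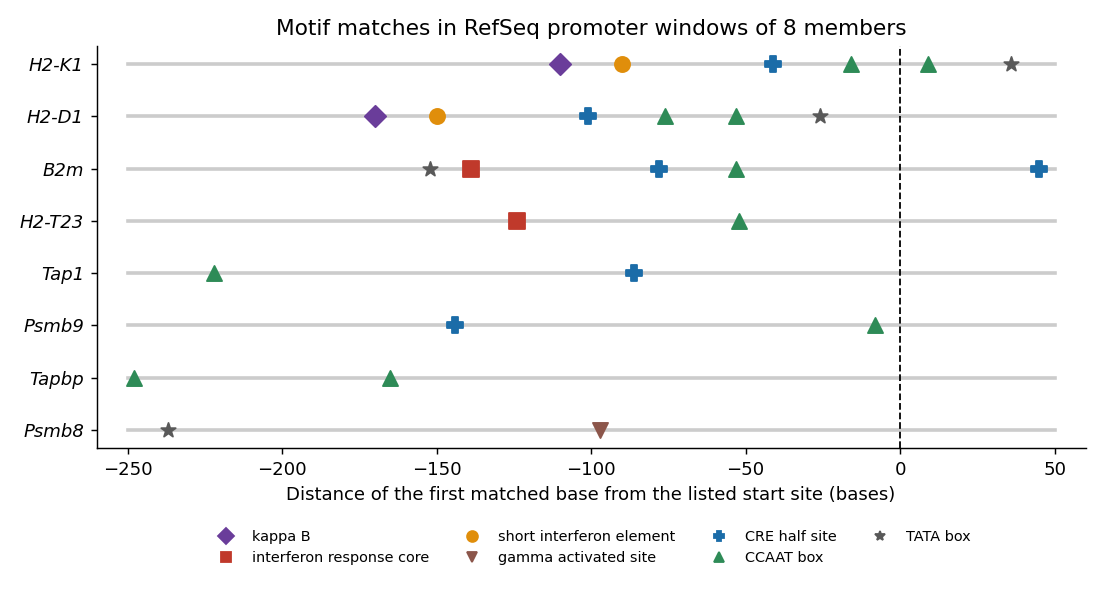
Matches of 7 motifs in the promoter windows of 8 members, drawn by the distance of the first matched base from the listed start site, in bases; the dashed line is the start. The H2-K1 and H2-D1 rows carry the same symbols in the same order, of which the first 4 are shifted against each other by 60 bases, and Tap1 and Psmb9 show the same pair of matches because their windows overlap.

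B2m, which encodes the light chain shared by all class I molecules, was the highest of the 10 at 153 TPM (ENSMUSG00000060802, chromosome 2, 122147687 to 122153082). It was higher than 96.2% of protein-coding genes at 1 TPM or more, with 447 protein-coding genes above it. H2-D1, a classical heavy chain that presents peptides to CD8 T cells, stood at 145 TPM (ENSMUSG00000073411, chromosome 17, 35263094 to 35267497), and B2m was 1.05-fold above it. H2-K1, the other classical heavy chain, stood at 85.4 TPM (ENSMUSG00000061232, chromosome 17, 33996012 to 34000619). H2-D1 was thus 1.70-fold above H2-K1, a ratio that rests on the uncertain division of reads among heavy chain genes. Their promoters match closely over the stretch printed above, and a link between promoter letters and level was not tested. B2m and H2-D1 were close to Cd34, the surface marker used to sort the cells, which stood at 132 TPM. Krt15, the keratin of the bulge, was 21.98-fold above B2m.

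H2-T23 encodes Qa-1, a non-classical heavy chain that shows leader peptides of other class I chains to receptors of natural killer cells. It stood at 14.3 TPM (ENSMUSG00000067212, chromosome 17, 36029977 to 36032701), above 54.0% of protein-coding genes at 1 TPM or more and 74.1% of all protein-coding genes. H2-D1 was 10.2-fold and H2-K1 5.96-fold above it. Heavy chain genes share long runs of sequence and differ between mouse strains, so the division of reads among them is uncertain. Of 15 further heavy chain genes and relatives, 14 were in the table. Of the 14, 9 reached 1 TPM, or 64.3%, against 56.2% of all protein-coding genes. The median of the 14 was 2.57 TPM. H2-Q4 was the highest of these at 19.3 TPM. H2-T22, whose product is bound by some gamma delta T cells, stood at 8.72 TPM, on an ID that also carries the symbol H2-T9. Mr1, which presents vitamin B metabolites, stood at 6.18 TPM. H2-Q7, a Qa-2 gene whose ID also carries the symbol H2-Q9, stood at 5.99 TPM. H2-T3 and H2-M2 were lowest at 0.181 and 0.0634 TPM. H2-K1 and H2-D1 together held 76.6% of the TPM summed over all 17 heavy chain genes and relatives in the table. B2m, whose product pairs with these chains, was at 0.663 of the sum of H2-K1 and H2-D1, and at 0.508 of the sum of all 17.

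**Figure D3:**
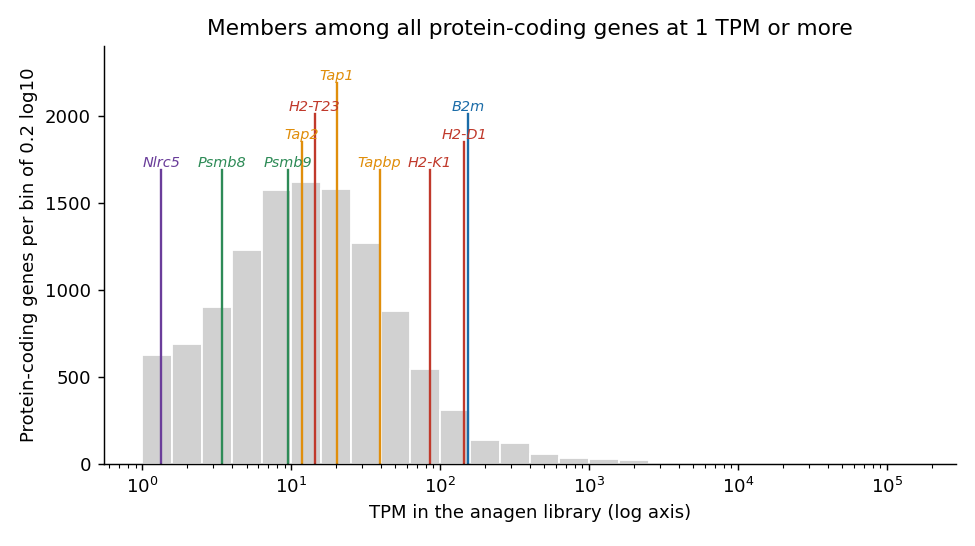
Number of protein-coding genes at 1 TPM or more in bins of 0.2 on the log10 TPM scale, with a line at the level of each of the 10 genes in the anagen library, coloured by role as in the plot of member levels. B2m and both classical heavy chains lie in the upper tail, H2-T23, Tap1, Tap2 and Psmb9 near the peak, and Psmb8 and Nlrc5 in the lower tail.

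The peptide transport genes were lower than B2m and both classical heavy chains, and Tapbp and Tap1 were above H2-T23. Tapbp, which encodes tapasin, the protein that holds an empty heavy chain at the transporter, stood at 39.1 TPM (ENSMUSG00000024308, chromosome 17, 33919478 to 33929290). Tap1 and Tap2 encode the partner chains of the transporter that pumps peptides into the endoplasmic reticulum. Tap1 stood at 20.1 TPM (ENSMUSG00000037321, chromosome 17, 34187556 to 34197225) and Tap2 at 11.8 TPM (ENSMUSG00000024339, chromosome 17, 34204479 to 34216321). Tapbp was above 81.1%, Tap1 above 64.6% and Tap2 above 48.3% of protein-coding genes at 1 TPM or more. The transporter chains, which work as a pair, thus differed by 1.70-fold, and Tapbp was 1.94-fold above Tap1.

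General folding factors of the loading step were far above these dedicated genes. The 12 genes listed for peptide loading and trimming had a median of 49.98 TPM, beside 12.5 TPM over protein-coding genes at 1 TPM or more. All 12 were at 1 TPM or more, against 56.2% of all protein-coding genes. The chaperone genes Hspa5, Calr and Canx stood at 316, 286 and 157 TPM and Pdia3, the disulfide isomerase of the loading complex, at 256 TPM. These serve glycoproteins of many kinds. The translocon genes Sec61b and Sec61a1 stood at 134 and 84.3 TPM. Peptide-cutting enzymes were lower, with Ide at 15.7 TPM, Tpp2 at 14.9 TPM, Erap1, which trims peptides in the endoplasmic reticulum, at 8.01 TPM and Lnpep at 3.78 TPM. Tapbpl, which encodes the tapasin relative TAPBPR, stood at 7.84 TPM, and Tapbp was 4.99-fold above it. B3galt4, a glycosyltransferase gene of the MHC region, was lowest at 1.44 TPM. It counts in the 12 and in their median, although a glycosyltransferase is not a peptide-cutting enzyme.

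The inducible proteasome subunits were at a small part of the level of their constitutive counterparts. Psmb8, Psmb9 and Psmb10 encode the subunits that take the catalytic places of Psmb5, Psmb6 and Psmb7 in the immunoproteasome, the form that interferon gamma induces and that leukocytes hold at rest. Psmb8 stood at 3.41 TPM (ENSMUSG00000024338, chromosome 17, 34198195 to 34201454), against 91.7 TPM for Psmb5. Psmb9 stood at 9.56 TPM (ENSMUSG00000096727, chromosome 17, 34182030 to 34187330), against 196 TPM for Psmb6. Psmb10, which is not among the 10 genes, stood at 4.47 TPM, against 95.5 TPM for Psmb7. The inducible subunit was at 3.71%, 4.89% and 4.68% of its counterpart in these pairs, in the order given. The sums over the pairs were 17.4 TPM for the inducible and 383 TPM for the constitutive subunits, a ratio of 4.56%. Psmb9 was 2.81-fold above Psmb8, and Psmb8 was above 16.4% and Psmb9 above 41.6% of protein-coding genes at 1 TPM or more. Among all protein-coding genes these shares were 53.0% for Psmb8 and 67.2% for Psmb9.

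**Figure D4:**
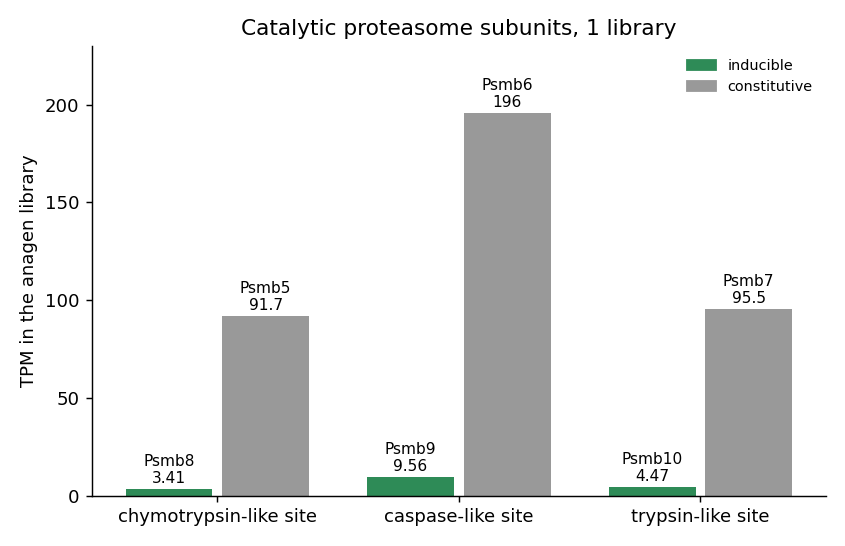
TPM in the anagen library of the inducible (green) and constitutive (grey) subunit at each catalytic site of the proteasome, on a linear axis from 0. The inducible subunits stand between 3.41 and 9.56 TPM and the constitutive ones between 91.7 and 196 TPM.

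The remaining proteasome genes listed were all above Psmb8, Psmb9 and Psmb10. The 11 listed core subunits of the 20S particle ranged from 77.0 to 416 TPM, with a median of 138 TPM. Of these the alpha ring genes Psma1 to Psma7 stood at 100.4, 138, 150, 206, 77.0, 98.8 and 375 TPM in numerical order, and the beta ring genes Psmb1 to Psmb4 at 103, 114, 167 and 416 TPM. Psme1 and Psme2, which encode the PA28 activator and are known interferon gamma targets, stood at 74.4 and 74.7 TPM, well above Psmb8 and Psmb9. The other activator genes Psme3 and Psme4 stood at 59.5 and 18.5 TPM. Pomp, the maturation factor of both proteasome forms, stood at 188 TPM.

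Nlrc5 was the lowest of the 10 at 1.34 TPM (ENSMUSG00000074151, chromosome 8, 94434335 to 94527272). Of protein-coding genes at 1 TPM or more, 3.30% were below it, a share that is low because its level is close to that cut. Of all protein-coding genes, 45.6% were below it. B2m was 114-fold above Nlrc5. NLRC5 has no DNA-binding domain of its own and is brought to class I promoters by the RFX complex, CREB and ATF1 proteins and NF-Y, whose genes were all above it. The 13 genes listed for class I transcription had a median of 19.6 TPM, beside 12.5 TPM over protein-coding genes at 1 TPM or more. All 13 were detected, against 56.2% of all protein-coding genes. Rfxap, a subunit of the RFX complex, was highest at 66.5 TPM, followed by Atf1 at 38.7 TPM, Nfkb1 at 37.0 TPM and the NF-Y subunit gene Nfyb at 26.9 TPM. The other RFX subunit genes were lower, with Rfx5 at 11.9 TPM and Rfxank at 6.45 TPM. Irf1, the interferon-induced activator of class I genes, was lowest at 4.29 TPM. Rfx5 was added here after its value was seen.

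Receptors for interferon were detected, while the 6 interferon genes looked up were listed at 0. A value of 0 was common, since only 24251 of all 42392 gene IDs were above 0. The 13 genes listed for interferon receptors and signalling were all detected, against 56.2% of all protein-coding genes. Their median was 12.8 TPM, near the 12.5 TPM over protein-coding genes at 1 TPM or more. Socs3, an inhibitor of cytokine signalling, was highest at 43.8 TPM, followed by the kinase gene Jak1 at 26.0 TPM, the interferon gamma receptor gene Ifngr1 at 16.4 TPM and Jak2 at 15.0 TPM. Ifnlr1, the receptor chain for lambda interferons, and Stat2 were lowest at 5.13 and 4.76 TPM. Ifng, Ifnb1, Ifnk, Ifnl2, Ifnl3 and Ifne are these 6; the depth of the library is unknown, so no detection limit can be set for them.

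Other interferon-induced genes were uneven. Of 25 listed, 12 reached 1 TPM, or 48.0%, against 56.2% of protein-coding genes, and the median over the 25 was 0.950 TPM. Ifitm3, an antiviral membrane protein gene, was highest at 68.2 TPM, followed by Ifi27 at 54.5 TPM, the transcription factor gene Irf7 at 17.8 TPM and Ifi35 at 15.3 TPM. Ifit3 and Rsad2, antiviral effector genes with low levels in most resting cells, were lowest at 0.0770 and 0.0508 TPM. The class I members therefore stood at a median of 17.2 TPM, beside 0.950 TPM for this list, but both lists were put together with values of these data already known, and the difference was not tested.

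Leukocytes carry class I genes at high levels, and the sort excluded cells with CD45, the product of Ptprc. Ptprc stood at 0.264 TPM, and no fold is given over so low a value. Of 12 leukocyte markers, 11 were in the table, none of them was listed at 0, and their sum was 35.6 TPM. Of the 11, 7 reached 1 TPM, or 63.6%, against 56.2% of all protein-coding genes. B2m was 11.6-fold, H2-D1 11.02-fold and H2-K1 6.47-fold above Cd74, the highest of these markers. Cd74 stood at 13.2 TPM and Lyz2, a gene of macrophages and neutrophils, at 10.02 TPM. Tyrobp, Fcer1g, Cd52, Laptm5 and Csf1r stood between 1.12 and 3.42 TPM. The T cell genes Cd3g and Cd3e stood at 0.8003 and 0.343 TPM and Cd207, the langerin gene of Langerhans cells, at 0.102 TPM. The part of leukocytes in the class I levels was not tested.

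Class II genes, which present outside antigens in leukocytes and in some activated epithelia, were detected at lower levels. The 9 listed had a median of 4.27 TPM, and 6 of them reached 1 TPM, a share near the 56.2% of all protein-coding genes. Cd74, the invariant chain, which is also a leukocyte marker, was highest at 13.2 TPM, and H2-DMb1 followed at 8.55 TPM. The class II chains H2-Ab1, H2-Aa and H2-Eb1 stood at 5.002, 4.35 and 4.27 TPM and the peptide editor H2-DMa at 3.68 TPM. H2-K1 was 17.1-fold and H2-D1 29.1-fold above H2-Ab1. Ciita, which does for class II what Nlrc5 does for class I, stood at 0.0488 TPM, beside 1.34 TPM for Nlrc5, and no fold is given over so low a value. H2-Oa stood at 0.0194 TPM and H2-Ob was listed at 0.

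Markers of the other cells that the sort should have removed differed between cell types. Beside the counts that follow, 56.2% of all protein-coding genes reached 1 TPM. Fibroblast markers all reached 1 TPM, with a sum of 879 TPM, from Col3a1 at 287 TPM to Pdgfra, the gene of the excluded surface protein CD140a, at 1.44 TPM. Col3a1, Col1a1 at 278 TPM and Col1a2 at 237 TPM were above B2m at 153 TPM, and Dcn, Lum and Pdgfra were below it. Of the 6 melanocyte markers, 5 reached 1 TPM, with a sum of 44.8 TPM and Mlana highest at 12.6 TPM. Of the 6 endothelial markers, 3 did, a share near that 56.2%, and 0 reached 5 TPM. The endothelial markers had a sum of 10.03 TPM, with Plvap highest at 4.65 TPM. None of these markers was listed at 0. The bulge markers that fit the label summed to 4234 TPM, with all 8 detected, and Nfatc1 lowest at 16.1 TPM. Krt15 alone held 3364 TPM of this sum. By median the bulge list, at 97.8 TPM, was below the fibroblast list, at 151 TPM. Basal keratinocyte markers summed to 5559 TPM and suprabasal ones to 1299 TPM. Most nucleated cells carry class I genes, and what each of these cell types added to the 10 levels was not tested.

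**Figure D5:**
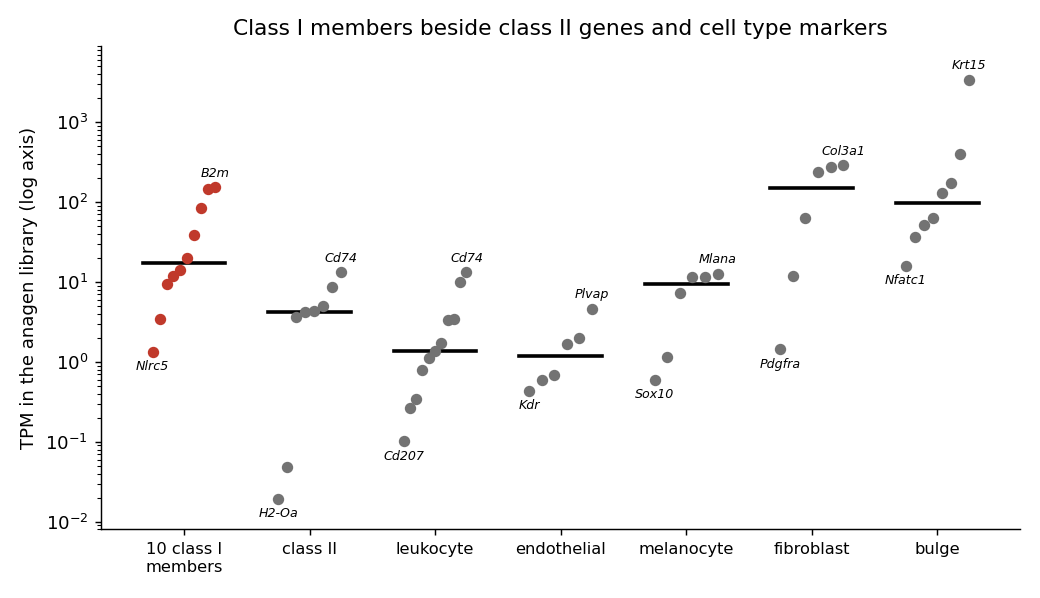
TPM in the anagen library of each gene in 7 lists on a log axis, with a black bar at the median of each list; the lowest drawn and the highest gene of a list are named, and H2-Ob, listed at 0, is not drawn but counts in the class II median. The 10 class I members have a median of 17.2 TPM, above the class II, leukocyte, endothelial and melanocyte lists and below the fibroblast and bulge lists.

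Ligands by which stressed or healthy cells speak to natural killer cells and gamma delta T cells ranged widely. The 6 listed had a median of 1.61 TPM, and 3 of them reached 1 TPM, a share near the 56.2% of all protein-coding genes. Clec2d, a ligand of an inhibitory natural killer cell receptor, stood at 28.2 TPM, between Tap1 and Tapbp. H60c, a skin ligand of the activating receptor NKG2D, stood at 10.7 TPM and Ulbp1, another, at 2.32 TPM. H60b, Raet1d and Raet1e stood at 0.895, 0.172 and 0.0988 TPM.

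The position of the members on the chromosome is a further feature they share. Of the 10, 8 lie on chromosome 17, all within the interval from Tapbp to H2-T23 (33919478 to 36032701), while B2m and Nlrc5 lie elsewhere. The 8 had a median of 17.2 TPM. The other 114 protein-coding genes of that interval found in the table had a median of 7.76 TPM, against 2.47 TPM over all protein-coding genes. Of these 114, 73.7% reached 1 TPM, against 56.2% of all protein-coding genes. Within the interval 7 genes were above H2-D1, among them the ribosomal protein gene Rps18 and the heat shock genes Hspa1a and Hspa1b, none of which presents antigen. Psmb9, Tap1, Psmb8 and Tap2 follow each other with no other protein-coding gene listed between them, over 34.3 kb, and stood at 9.56, 20.1, 3.41 and 11.8 TPM in that order. The direct neighbours Tap1 and Psmb8 thus differed by 5.91-fold. On either side lie class II genes, H2-DMb1 before Psmb9 and H2-Ob after Tap2, at 8.55 and 0 TPM.

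Psmb9 and Tap1 are read in opposite directions from either end of the same 225 bases, chr17:34187331-34187555. The interval is shown whole, on the plus strand, with CCAAT and TGACG in capitals; it starts next to the first base of Psmb9 and ends next to the first base of Tap1.
Psmb9-Tap1 interval: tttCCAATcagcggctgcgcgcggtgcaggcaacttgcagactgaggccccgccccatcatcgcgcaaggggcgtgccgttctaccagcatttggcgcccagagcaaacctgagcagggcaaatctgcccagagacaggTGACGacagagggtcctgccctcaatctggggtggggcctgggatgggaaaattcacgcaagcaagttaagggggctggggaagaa
Read towards each gene, the first of the CCAAT letters lies at position -222 from the Tap1 start and -8 from the Psmb9 start, and the first of the TGACG letters at -86 and -144 from these starts, in the same order. Tap1 was 2.10-fold above Psmb9, so the genes at the ends of this shared stretch were not at the same level. Because the windows overlap, these matches count once as DNA although both genes are among the 8 promoters counted above.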

How the data were processed

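RNA of 1 sorted anagen sample was used. The submitters' processing notes name RSEM 1.2.30, Bowtie2 2.2.9 and build mm10, and the deposited values are TPM, per the file headers. Which annotation was used is not given in the sources used here. As TPM keeps no depth, no interval or floor was set. Of 12 value columns in the table, the one numbered 1 was matched to the anagen title, which alone carries that number, and the other 11 were not used.

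The 42661 rows hold 42392 gene IDs, each used once. Of these, 41523 matched a table of gene names, which supplied missing symbols. Protein-coding genes and positions came from RefSeq (GRCm38.p6), matched by symbol. A percentile is the share of protein-coding genes at 1 TPM or more with a lower value. Its calculation was checked on values of this library, some of them multiplied by known factors. That check covers the calculation only. The planned ratio of anagen to telogen could not be made.

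Members and lists were chosen with earlier results of these data known, and motifs after the promoters were read. All members of lists of at most 12 genes are named, and of longer lists the 4 highest and the 2 lowest; cell type markers are given in part. The level of 1 listed gene is not reported here. H2-L and Trdc were not found by symbol and were not analysed here. Python 3.11.15, pandas 2.3.3, numpy 2.4.6 and matplotlib 3.10.9 were used.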

Additional observations from a re-analysis of the deposited data

How the results depend on the processing

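No paired analysis was possible because the result comes from no test and 1 library was used. Rescaling TPM without the 24 mitochondrial genes and the 50 highest others raised every level 1.73-fold, so the median of the 10 genes became 29.8 TPM and ratios did not change; all 10 stayed at 1 TPM or more. The geometric mean was 21.6 TPM with a pseudocount of 1 and 20.3 TPM with 0.1, against the median of 17.2 TPM. The median percentile of the 10 was 59.3 among protein-coding genes at 1 TPM or more, 77.1 among all protein-coding genes and 46.3 among those from 5 TPM, so whether the set lies above the middle depends on that choice. B2m relative to all heavy chains was 0.508, against 0.663 relative to H2-K1 and H2-D1; summing over gene IDs changed nothing, since each symbol had 1 ID. On the TPM + 1 scale the ratios of Psmb8 to Psmb5, Psmb9 to Psmb6 and Psmb10 to Psmb7 were 0.0475, 0.0538 and 0.0567, against 0.0371, 0.0489 and 0.0468. With detection at 5 TPM the count fell to 4 of 14 heavy chain relatives, 4 of 25 other interferon targets and 3 of 9 class II genes. It fell to 2 of 11 leukocyte markers and 0 of 6 endothelial markers. At 1 TPM these counts were 9, 12, 6, 7 and 3, in the same order. Of all protein-coding genes, 42.6% reached 5 TPM and 56.2% reached 1 TPM. The counts of the other lists fell by a smaller part or not at all. Read depth is unknown, which leaves the precision of low values such as those of Nlrc5 and Psmb8 unknown, and the ratio of anagen to telogen was not run.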
